A study of Mus musculus with 6 samples.

Results

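Natural killer (NK) cells that carried no transcript of Itga1 were followed in 6 tumour samples, and they numbered 1112 of 41679 cell barcodes. Itga1 (GRCm38 chr13:114953096-115101964) encodes CD49a, the integrin chain that marks NK cells of tissue type. A floor of 300 genes and of 500 UMIs (counted RNA molecules), with no more than 10% of UMIs mitochondrial, left 39424 cells, called kept cells below. A member had no assembled T cell receptor (TCR) contig, at least 1 UMI of 2 or more of the NK genes Ncr1, Klrb1c, Klra4, Klra7 and Klra8, and no UMI of Cd3e, Cd3g or Itga1. The members were thus selected on their UMIs of these 8 genes, whose values are given as a description. Another 768 cells met the same terms but had an Itga1 UMI, and they serve as the nearest comparison.

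NK cells are lymphocytes without a rearranged antigen receptor that kill tumour cells by releasing perforin and granzymes, and they are steered by a balance of activating and inhibitory surface receptors. IL-2, IL-12, IL-15 and IL-18 drive their growth, their killing and their release of interferon gamma. Conventional NK cells depend on the transcription factors Eomes and T-bet and circulate, whereas CD49a-positive NK cells and the related ILC1 stay in tissue. Regulatory T (Treg) cells restrain NK cells partly by taking up IL-2.

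The samples were leukocytes sorted for CD45 from MC38 tumours, a mouse colon carcinoma line with no engineered change, taken on day 25 after injection under the skin. Of the 6 samples, 3 came from control mice whose Treg cells have wild-type Ctcf (ctr) and 3 from mice in which tamoxifen removes Ctcf from Treg cells (cko). CTCF is the DNA-binding protein that anchors chromatin loops, and NK cells were not the cells meant to lose it. The labels call the samples biological replicates, and the Cre driver, strain, age, sex and tamoxifen schedule of the mice are not given in the sources used here. Gene counts came from droplet 5′ single-cell RNA sequencing.

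The number of members was 239, 178 and 270 in ctr replicates 1, 2 and 3, and 143, 97 and 185 in cko replicates 1, 2 and 3. Their median depth was 9185, 7327.5 and 8032.5 UMIs per cell in ctr but only 5477, 2754 and 5280 in cko, without overlap. Summed per sample, the members held 1707015 to 2485810 UMIs in ctr and 529131 to 1287817 in cko, with a median mitochondrial share of 0.806% to 1.12%. No member barcode was shared between libraries, although any pair of libraries shared 41 to 81 of all barcodes. The cko replicates 1 and 3 shared 197 TCR clonotypes with the same alpha and beta chains, out of 616 and 711, while every other pair shared 0 to 3. Whether these libraries come from separate mice could not be settled from the data. The gene tests and the shares were therefore repeated with those libraries added together as 1 sample.

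NK markers that the rule did not use matched the name. Eomes stood at 176 to 240 CPM, that is UMIs scaled to a common total of summed counts, in the members and at 0 to 0.85 CPM in macrophages positive for C1qa, C1qb and C1qc. Nkg7, a granule membrane protein of killer cells, stood at 2166 to 2786 CPM against 5.92 to 13.5 CPM in those macrophages. Klrd1, the CD94 chain shared by NKG2 receptors, stood at 669 to 876 CPM against 7.06 to 15.9. Cd4 gave 4 UMIs and Cd8a 23 in all members together, and Cd3d stayed at 3.88 to 7.39 CPM where all kept cells had 390 to 804. Il1rl1, found on ILC2, had 3 UMIs. The transcription factor gene Gata3 stood at 30.2 to 51.9 CPM in members and at 32.1 to 54.6 CPM in all kept cells. Summed over 10 markers of ILC2 and ILC3, the members held 75 to 105 CPM in ctr and 71.8 to 212 CPM in cko. Trbc1 (106 to 149 CPM) and Trbc2 (117 to 238 CPM), TCR constant region genes that NK cells can transcribe without a rearrangement, were present in the same cells. Trdc, the constant region gene of the TCR delta chain, was higher in members (30.2 to 49.2 CPM) than in all kept cells (3.6 to 17.5 CPM).

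Among the genes that chose the cells, Ncr1, which encodes the activating receptor NKp46, stood at 347 to 690 CPM, and Klrb1c, which encodes NK1.1, at 406 to 566 CPM. Members with exactly 2 of the 5 marker genes numbered 367. Cells with exactly 1 marker that met the rest of the rule numbered 622. The median level of Eomes over the samples was 127 CPM just inside this limit and 21.3 CPM just outside it, and that of the macrophage gene C1qa was 36.7 and 1149 CPM. All 5 markers were found in 183 members.

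Members made up a smaller part of the leukocytes in cko tumours. Their share of kept cells was 3.73%, 3.04% and 3.71% in ctr replicates 1 to 3 and 2.09%, 1.58% and 2.67% in cko replicates 1 to 3. Every cko sample lay below every ctr sample. The means were 3.49% ± 0.39 (SD, n = 3) and 2.11% ± 0.544 (SD, n = 3), a difference of -1.38 percentage points (exact permutation test, two-sided, p = 0.1). With 3 samples against 3, this test cannot go below 0.1. With cko replicates 1 and 3 added together the difference was -1.51 points, without overlap (exact p = 0.2). The shares also depend on the CD45 sort and on how many other leukocytes it returned: over kept cells without a TCR contig they were 5.74% ± 1.25 and 3.96% ± 1.13, the groups overlapped, and the exact p was 0.2. Every cell was then thinned to 2000 UMIs and the rule applied anew. The means were 4.6% and 1.98%, a difference of -2.61 points (exact p = 0.1). The cells counted as members were then partly others. Itga1-positive cells that lost their Itga1 UMIs entered. Cells without a contig that lost their Cd3e and Cd3g UMIs could enter too. Cells below 2000 UMIs, or left with fewer than 2 of the markers, dropped out. Itga1-positive cells went from 601 to 150 in ctr and from 167 to 38 in cko. This difference thus mixes both kinds of NK cells and may hold cells that had a Cd3e or Cd3g UMI before thinning. The share of the original members at equal depth was not tested.

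The balance between NK cells with and without Itga1 differed too. NK cells without an Itga1 UMI were 50.6%, 59.1% and 52.4% of all NK cells found by the rule in ctr and 73%, 68.3% and 72.8% in cko. The groups did not overlap, and the means of 54.1% ± 4.48 and 71.4% ± 2.65 (SD, n = 3 each) differed by 17.3 points (exact p = 0.1). With cko replicates 1 and 3 added together the difference was 16.5 points, without overlap (exact p = 0.2). Itga1-positive NK cells formed 3.04% ± 0.818 of kept cells in ctr and 0.835% ± 0.14 in cko. Depth enters here, because a shallower cell is more likely to show no Itga1 UMI. After thinning to 2000 UMIs the shares without Itga1 were 84% ± 0.794 and 88.8% ± 3.96, a difference of 4.81 points in the same direction (exact p = 0.1). A cell with no Itga1 UMI may still express the gene.

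**Figure D1:**
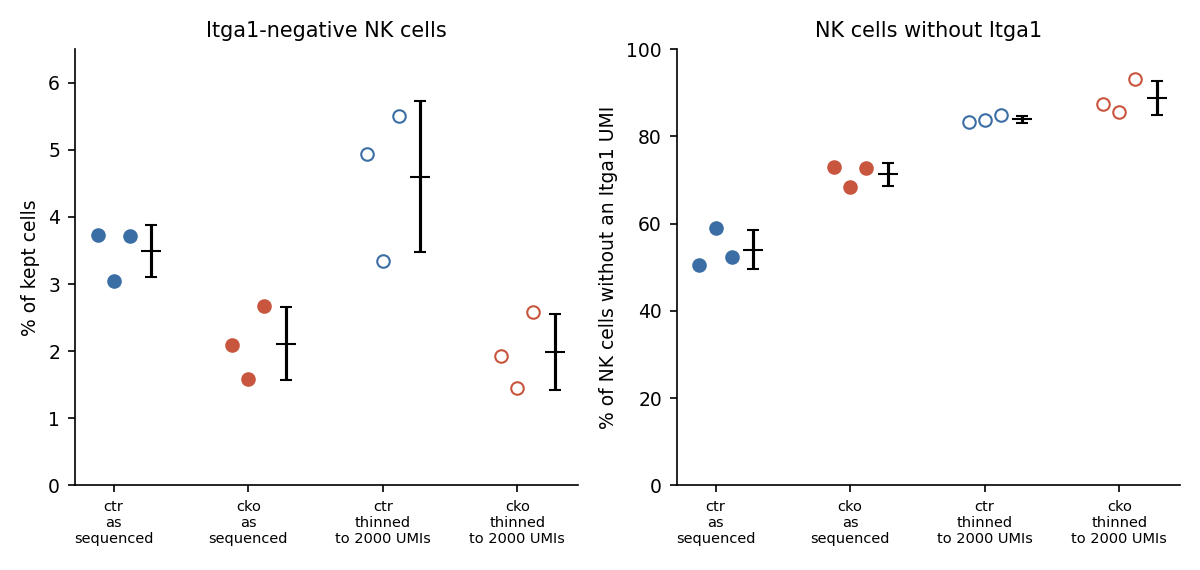
Share of Itga1-negative NK cells among kept cells (left) and share of NK cells without an Itga1 UMI (right), each sample a point and mean ± SD beside it. Filled points are cells as sequenced and open points cells thinned to 2000 UMIs, with the rule applied anew. On the left the cko samples (1.58% to 2.67%) lie below the ctr samples (3.04% to 3.73%), and on the right the gap of 17.3 points between the means narrows to 4.81 after thinning.

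Gene counts were summed over the members of each sample and compared with edgeR's quasi-likelihood test, with Benjamini-Hochberg adjustment over all genes tested. Ctcf itself, not deleted in these cells by design, stood at 81.4, 72.6 and 75.5 CPM in ctr and 71.6, 77.2 and 68.8 CPM in cko (log2 fold change -0.09, SE 0.14, adjusted p = 0.807). Of 8782 genes, 62 (0.706%) were higher in cko and 38 (0.433%) lower at an adjusted p below 0.05, or 1.14% in all. For comparison, 22.2% of all genes had groups that did not overlap, 11.2% with every cko sample above every ctr sample and 11.0% with the opposite order. The count rests on all libraries: it was 13 with cko replicates 1 and 3 added together, and 92, 49 and 20 without ctr replicate 1, 2 or 3 and 29, 46 and 23 without cko replicate 1, 2 or 3. In thinned cells 45 genes were higher and 92 lower, a split that differed from the one as sequenced. The rule was applied anew there, so the thinned members include cells that lost their Itga1 UMIs. They may also include cells without a contig that lost their Cd3e and Cd3g UMIs. Of the 36 calls named below, 8 stood with the libraries added together (Acp5, C1qa, C1qc, Camk4, Dscam, Gpr183, Ifnar1 and Stat4). Of the 27 that could be tested in thinned cells, 11 stood there. CPM values of single genes below are scaled by edgeR's TMM method.

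Several receptors and signal carriers for cytokines were higher in cko. Of 26 genes of cytokine receptors and signalling that were tested, 6 rose in cko (Il7r, Il2ra, Il12rb2, Il18r1, Ifnar1 and Stat4) and none fell, with a median log2 fold change of 0.15 against 0.01 over all genes. With cko replicates 1 and 3 added together 2 of them were called. Stat4 (chr1:51987148-52107189), the transcription factor that carries the IL-12 signal, stood at 124, 118 and 124 CPM in ctr and at 193, 204 and 211 CPM in cko. The cko samples lay well above the ctr samples and close to each other (log2 0.73, SE 0.11, adjusted p = 0.00558). Il12rb2, a chain of the IL-12 receptor, was at 88.6, 88.9 and 79.5 CPM in ctr and at 110, 138 and 151 CPM in cko (log2 0.64, SE 0.14, adjusted p = 0.0329). Il18r1, a chain of the IL-18 receptor, was at 72.9, 73.8 and 86.9 CPM in ctr and at 138, 108 and 129 CPM in cko (log2 0.69, SE 0.14, adjusted p = 0.0207). Neither gene's groups overlapped. Their partner chains did not pass the test: Il12rb1 had a log2 fold change of -0.27 (adjusted p = 0.47) and Il18rap 0.22 (adjusted p = 0.45).

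Ifnar1, a chain of the type I interferon receptor, was at 76.8, 72.6 and 75.1 CPM in ctr and at 127, 160 and 125 CPM in cko (log2 0.85, SE 0.13, adjusted p = 0.00572). The ctr samples lay close together, and each cko sample was far above them. Il2ra, the high-affinity chain of the IL-2 receptor, was low throughout, at 13.1, 6.6 and 9.66 CPM in ctr and at 22, 33.1 and 25.1 CPM in cko (log2 1.36, SE 0.29, adjusted p = 0.0329). Il2rb, the chain that binds IL-2 and IL-15 on resting NK cells, did not pass the test (log2 -0.09, SE 0.11, adjusted p = 0.749). Stat4 and Ifnar1 kept their call with each library left out in turn and with cko replicates 1 and 3 added together. In thinned cells Ifnar1 kept it (log2 0.93, adjusted p = 0.00804) and Stat4 did not (log2 0.52, adjusted p = 0.137). Il12rb2, Il18r1 and Il2ra lost it without 4 or 5 of the 6 libraries, with adjusted p up to 0.251, 0.119 and 0.172, and with the added libraries (0.0661, 0.0905 and 0.0882).

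Il7r (chr15:9505788-9530176), the receptor chain for IL-7 that marks ILC1 and a subset of immature NK cells, had the largest fold change among the named higher genes. It stood at 8.48, 6.6 and 2.2 CPM in ctr and at 39.2, 69.8 and 32.5 CPM in cko (log2 2.93, SE 0.42, adjusted p = 0.0132). The call was lost without cko replicate 1 (adjusted p = 0.0595) and with the added libraries (0.0594). An Il7r UMI was found in 20 of 687 ctr and 51 of 425 cko members. In thinned cells the share with an Il7r UMI was 1.77% ± 0.895 in ctr and 6.5% ± 2.94 in cko members (SD, n = 3 each), and 2.86% ± 0.237 and 13.4% ± 5.52 in macrophages of the same samples; unthinned it was 2.96% and 11.9%. The share in members was thus no higher than in macrophages. Whether the Il7r UMIs came from the members themselves was not tested. Where Il7r is counted as rising in a list, this means only the call on its summed counts. Without the members that had 2 or more macrophage markers, the log2 fold change was 2.71 (adjusted p = 0.000664).

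Kit, the stem cell factor receptor found on immature NK cells and other innate lymphocytes, was at 46.2, 22.8 and 25 CPM in ctr and at 78.3, 90 and 84.3 CPM in cko (log2 1.39, SE 0.24, adjusted p = 0.0199). Tcf7, which encodes TCF-1, a factor of early NK cells, was at 70.8, 69.6 and 91.8 CPM in ctr and at 112, 107 and 147 CPM in cko (log2 0.67, SE 0.15, adjusted p = 0.0452). In both genes all cko samples were above all ctr samples. With Il7r they were the 3 of 12 tested genes of early CD27-type NK cells that rose, and none fell (median log2 0.27). The defining gene Cd27 was not among them (log2 -0.08, SE 0.16, adjusted p = 0.854). Tcf7 lost its call without any library (adjusted p up to 0.303), and Kit without ctr replicate 3 or any of the cko libraries (up to 0.129). Both missed the threshold with the added libraries (0.134 and 0.0827). Pooled over the cko samples, 24 of the 51 members with an Il7r UMI also had a Kit UMI. Eomes was seen in 31.4% of those 51 members and in 57.5% of the rest. For members with a Kit UMI these shares were 53.8% and 54.5%, and for members with a Tcf7 UMI 66.5% and 46%. Depth differed too, with a median of 8411 UMIs in members with Il7r and 4572 in the rest. For Kit these medians were 8435 and 4144.5, and for Tcf7 8190 and 2847.5. The part of depth in the Eomes shares was not tested.

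**Figure D2:**
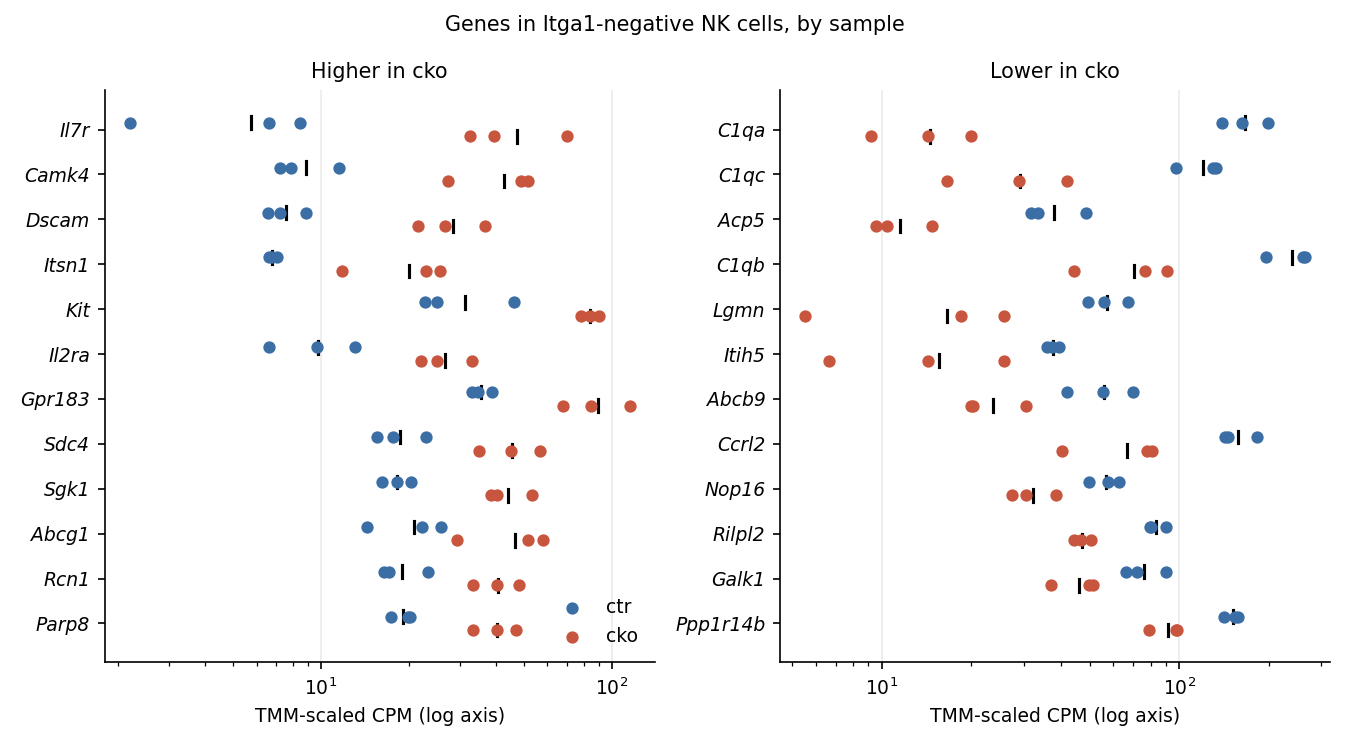
Level of the 12 higher and 12 lower genes with the largest fold changes among those past the threshold, in TMM-scaled CPM on a log axis, with 3 ctr (blue) and 3 cko (red) points per gene and a black bar at each mean. The groups do not overlap in any of the genes, which the choice of genes required. Camk4, for example, lies at 7.2 to 11.5 CPM in ctr and at 27.4 to 51.4 CPM in cko.

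No gene of mature, circulating NK cells passed the test. Of 15 tested, 14 had a positive log2 fold change, against 51.5% of all genes tested, and the median was 0.34. S1pr5, the receptor that lets NK cells leave tissue, was at 5.51, 13.2 and 12.3 CPM in ctr and at 10.5, 20.2 and 32.5 CPM in cko, with overlap (log2 1.10, SE 0.43, adjusted p = 0.249). The integrin genes Itgam (CD11b; log2 0.16, adjusted p = 0.857) and Itga2 (CD49b; log2 0.11, adjusted p = 0.932) did not pass. Of the tissue-type and ILC1 genes, Il7r alone rose among 15 tested (median 0.09). Cxcr6, the receptor that holds lymphocytes in tissue, was at 17, 16.2 and 6.15 CPM in ctr and at 26.7, 64.3 and 33.3 CPM in cko, without overlap (log2 1.57, SE 0.44, adjusted p = 0.149).

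Among transcription factors of NK cells, Tcf7 rose and the other 20 tested were not called. Eomes, which maintains conventional NK cells, was at 193, 216 and 257 CPM in ctr and at 175, 176 and 189 CPM in cko (log2 -0.30, SE 0.13, adjusted p = 0.261). Its cko samples were all below its ctr samples. Tbx21, which encodes T-bet, was at 119 to 174 CPM and 138 to 187 CPM (log2 0.22, SE 0.15, adjusted p = 0.531). Id2, which allows innate lymphocytes to form, was at 1160, 916 and 1032 CPM in ctr and at 793, 579 and 781 CPM in cko, without overlap (log2 -0.52, adjusted p = 0.0672). Zeb2, a driver of the last steps of NK maturation, was at 72.9, 94.3 and 65.9 CPM in ctr and at 97.4, 119 and 112 CPM in cko (log2 0.50, adjusted p = 0.126). Id2 and Zeb2 were picked after their values were seen.

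Among lectin receptors of the NK complex, only Klrc1 of 16 tested rose. Klrc1 (chr6:129666015-129678973) encodes NKG2A, the inhibitory receptor for the non-classical class I molecule Qa-1, and stood at 211, 268 and 238 CPM in ctr and at 402, 384 and 371 CPM in cko. The cko samples were close together and all above the ctr samples (log2 0.69, SE 0.12, adjusted p = 0.0103). Its CD94 partner Klrd1 (log2 0.02, adjusted p = 0.972) and Klrk1, the activating receptor NKG2D (log2 0.15, SE 0.13, adjusted p = 0.61), did not pass the test. Neither did the activating relative Klrc2 (log2 -0.06, adjusted p = 0.904), whose sequence is close enough to that of Klrc1 that the counting may split their reads. The share of members with a Klrc1 UMI after thinning was 31% ± 4.71 in ctr and 44.7% ± 3.66 in cko, against 0.503% and 0.771% in macrophages. Without thinning it was 46.5% and 50.8%. The Klrc1 call was lost without ctr replicate 3 or cko replicate 1 (adjusted p up to 0.0734) and with the added libraries (0.0618).

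Of the killing machinery, Gzma alone of 22 tested genes was called. Gzma encodes granzyme A and stood at 3626, 2939 and 3453 CPM in ctr and at 4153, 5243 and 4781 CPM in cko (log2 0.50, SE 0.11, adjusted p = 0.0357). Gzmb, granzyme B, overlapped at 2556, 1663 and 2368 CPM in ctr and 2085, 2412 and 1932 CPM in cko (log2 -0.04, SE 0.15, adjusted p = 0.945). Prf1, the pore-forming perforin, was at 721, 666 and 897 CPM in ctr and at 629, 739 and 641 CPM in cko (log2 -0.19, SE 0.13, adjusted p = 0.495). Both sets overlapped. Gzmf, chosen after its values were seen, varied within groups, from 2.63 to 30 CPM in ctr and from 2.96 to 371 CPM in cko, with the lowest cko value in replicate 3 (log2 3.66, adjusted p = 0.423). The Gzma call was lost without every library but ctr replicate 1 (adjusted p up to 0.19) and with the added libraries (0.0827). It stood in thinned cells (log2 0.64, adjusted p = 4.18e-05) but not without cells holding T cell or macrophage transcripts (0.13, 0.803). The share of members with a Gzma UMI went the other way, at 68.5% to 74.1% in ctr and 51.5% to 65.4% in cko. After thinning the mean shares were 66.2% ± 3 and 61.9% ± 7.6, with overlap.

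The cytokine output of the members did not pass the test, apart from Flt3l. Ifng, which encodes interferon gamma, was at 106, 96.7 and 111 CPM in ctr and at 102, 116 and 105 CPM in cko (log2 0.03, SE 0.12, adjusted p = 0.99). Ccl5, a chemokine that draws T cells and myeloid cells, was at 1574, 2325 and 1946 CPM in ctr and at 2605, 3682 and 4086 CPM in cko, without overlap (log2 0.83, SE 0.20, adjusted p = 0.109). Flt3l, the growth factor of dendritic cells, fell from 139, 142 and 167 CPM in ctr to 90.7, 97.4 and 101 CPM in cko (log2 -0.63, SE 0.13, adjusted p = 0.0242). All cko samples were below all ctr samples. Its call was lost without every library but ctr replicate 1 (adjusted p up to 0.135). The checkpoint receptors Tigit (log2 -0.53, SE 0.35, adjusted p = 0.547) and Pdcd1 (log2 2.05, SE 0.58, adjusted p = 0.138) were not called, the latter at 0.6 to 9.75 CPM in ctr and 18.5 to 22 CPM in cko.

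Higher genes outside the NK lists were led by Camk4 and Dscam. Camk4, a calcium-dependent kinase of lymphocytes, was at 11.5, 7.2 and 7.9 CPM in ctr and at 48.7, 51.4 and 27.4 CPM in cko (log2 2.18, SE 0.29, adjusted p = 0.00431). Dscam, a cell adhesion molecule best known from neurons, was at 8.91, 7.2 and 6.59 CPM in ctr and at 26.7, 36.7 and 21.5 CPM in cko (log2 1.82, SE 0.29, adjusted p = 0.00763). Gpr183, the receptor that guides immune cells along oxysterol gradients, was at 38.6, 33 and 34.7 CPM in ctr and at 115, 84.5 and 68 CPM in cko (log2 1.32, SE 0.19, adjusted p = 0.00558). No cko sample of the 3 genes reached down to a ctr sample, and all 3 kept their call without each library in turn and with cko replicates 1 and 3 added together. Gpr183 lost it among members with at least 3 markers (log2 0.94, adjusted p = 0.207) and in thinned cells (log2 1.40, adjusted p = 0.0509), where Camk4 and Dscam were too low to be tested. Thinned shares of members with a Camk4 UMI were 2.05% ± 0.51 in ctr and 6.92% ± 1.4 in cko, against 0.119% and 0.27% in macrophages, and unthinned shares were 7.14% and 19.1%.

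Other higher genes were the kinase gene Sgk1 (16.2 to 20.4 CPM in ctr and 38.5 to 53.3 CPM in cko, log2 1.23), the heparan sulfate proteoglycan gene Sdc4 (15.6 to 22.9 and 34.9 to 56.4 CPM, log2 1.30) and the cholesterol exporter gene Abcg1 (14.4 to 25.9 and 29.4 to 57.7 CPM, log2 1.23). Itsn1, an endocytic scaffold, had a log2 fold change of 1.47. Parp8, of the ADP-ribosyltransferase family, and Rcn1, a calcium-binding protein of the endoplasmic reticulum, had 1.04 and 1.09. Hif1a, the oxygen-regulated transcription factor, was at 95.8, 103 and 103 CPM in ctr and at 154, 162 and 135 CPM in cko (log2 0.57, SE 0.12, adjusted p = 0.0329). Gbp5, an interferon-induced GTPase (log2 1.01, SE 0.22, adjusted p = 0.0357), and Ier3, an early response gene (log2 0.95, SE 0.19, adjusted p = 0.0326), also rose. Sgk1 lost its call only without ctr replicate 3 among the libraries (adjusted p = 0.0515). Sdc4 lost it without 3 of the 6 libraries, and Itsn1, Abcg1, Parp8, Rcn1, Hif1a, Gbp5 and Ier3 without 4 to 6, with adjusted p up to 0.273. Gbp5 also lost it without the members that had 2 or more macrophage markers (log2 0.63, adjusted p = 0.191).

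The lower genes were headed by transcripts of macrophages. C1qa, C1qb and C1qc, the chains of complement C1q that tumour macrophages make, were the 3 of 13 tested macrophage markers that fell, with none higher and a list median of -1.14. C1qa was at 139, 198 and 162 CPM in ctr and at 14.3, 9.19 and 20 CPM in cko (log2 -3.39, SE 0.21, adjusted p = 6.66e-07). The ctr members thus held several times the C1qa of any cko sample. Apoe, a lipid carrier of macrophages named after its values were seen, was at 559, 590 and 454 CPM in ctr and at 52.5, 60.6 and 146 CPM in cko (log2 -2.56, adjusted p = 0.101). Of 5 tested dendritic cell markers none was called, with a median of -1.23, and 12 such markers summed to 1770 to 9166 CPM in ctr and 1153 to 2959 CPM in cko. Summed over 14 macrophage markers, the members held 2067 to 3314 CPM in ctr and 1264 to 1749 CPM in cko. Members with 2 or more of the 5 markers C1qa, C1qb, C1qc, Lyz2 and Csf1r made up 13.4%, 14.6% and 5.93% in ctr and 7.69%, 3.09% and 4.32% in cko. No doublets were removed, and the part of joined cells or free RNA in these values was not tested.

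Without the members that had 2 or more macrophage markers, 128 genes were called (71 higher and 57 lower), 79 of them among the original 100, and 28 of the 36 named calls stood. This comparison was added after the data were seen. The median of the macrophage list was then 0.32, a shift partly set by the removal, which used markers of that list. The median of the dendritic cell markers was -1.53 in the same setting, with none called. Acp5, the lysosomal acid phosphatase TRAP, was at 33.5, 31.8 and 48.7 CPM in ctr and at 9.55, 14.7 and 10.4 CPM in cko (log2 -1.80, SE 0.27, adjusted p = 0.00558), and at log2 -1.83 without those members (0.00305), but at -0.93 (0.393) in thinned cells. Ccrl2, an atypical receptor that binds chemerin, was at 142, 183 and 146 CPM in ctr and at 81.2, 40.4 and 77.7 CPM in cko (log2 -1.16, SE 0.19, adjusted p = 0.0199). Without those members its log2 fold change was 0.23 (adjusted p = 0.746). Lgmn, the lysosomal protease legumain, was at 55.6, 67.2 and 49.2 CPM in ctr and at 25.8, 5.51 and 18.5 CPM in cko (log2 -1.63, SE 0.28, adjusted p = 0.0205), and it was too low to be tested without them. C1qa kept its call without each library in turn. C1qb lost it without cko replicate 1 (0.0595). Acp5, C1qc and Lgmn lost it without cko replicate 3 (0.0532, 0.0532 and 0.194). Ccrl2 lost it when cko replicate 1, cko replicate 3 or ctr replicate 3 was left out (up to 0.0954).

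The remaining lower genes were of several kinds. Itih5, a matrix protein that binds hyaluronan, was at 37.3, 36 and 39.5 CPM in ctr and at 14.3, 25.7 and 6.66 CPM in cko (log2 -1.49, SE 0.31, adjusted p = 0.0329). Abcb9, a lysosomal peptide transporter, was at 70, 42 and 55.3 CPM in ctr and at 30.6, 20.2 and 20 CPM in cko (log2 -1.24, SE 0.24, adjusted p = 0.0207). Without members with 2 or more macrophage markers they stood at -1.68 and -1.21 and stayed past the threshold. Rilpl2, which acts in membrane transport, had a log2 fold change of -0.80, Galk1, a galactose kinase, -0.76, and Ppp1r14b, a phosphatase inhibitor, -0.72. Nop16, a nucleolar protein of ribosome assembly, was at 49.6, 57.6 and 62.8 CPM in ctr and at 30.6, 38.6 and 27.4 CPM in cko (log2 -0.86, SE 0.19, adjusted p = 0.0329), and its log2 fold change was -0.12 (0.933) in thinned cells. Ppp1r14b lost its call without cko replicate 1 or 3 (up to 0.079), and the other 5 without 3 to 6 libraries, with adjusted p up to 0.296. Fos, an immediate early gene that tissue dissociation can raise, fell from 705, 725 and 551 CPM to 395, 399 and 447 CPM (log2 -0.67, SE 0.12, adjusted p = 0.0167), but stood at -0.16 (0.731) without the macrophage-bearing members. Its call was also lost without 4 of the 6 libraries (up to 0.0858).

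Ribosomal protein genes mostly had negative log2 fold changes, and some of them were called. Over all 8782 genes tested, 38 (0.433%) were called lower and 4263 had a negative log2 fold change. Of 80 ribosomal protein genes tested, 5 fell and none rose, 75 had a negative log2 fold change, and the median was -0.31. Of 75 mitochondrial ribosomal protein genes, 3 fell, 67 were negative, and the median was -0.21. Fbl, the methyltransferase of ribosomal RNA, was at 268, 241 and 256 CPM in ctr and at 185, 165 and 149 CPM in cko (log2 -0.62, SE 0.12, adjusted p = 0.0205). Nme1, a nucleoside kinase, was at 559, 507 and 533 CPM in ctr and at 382, 356 and 343 CPM in cko (log2 -0.56, SE 0.11, adjusted p = 0.0205). Phb (log2 -0.62), Cycs (-0.50) and Ucp2 (-0.58), which act in mitochondria, fell as well. These genes were picked after their values were seen, and each lost its call without 3 or more libraries, with adjusted p up to 0.226.

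Glycolysis and cell cycle genes did not pass the test, apart from Hif1a. Of 19 glycolysis and hypoxia genes 18 had a negative log2 fold change (median -0.34), and the sole call was the rise of Hif1a. Over all 8782 genes tested 4263 were negative. Ldha, lactate dehydrogenase, was at 1423, 1042 and 1106 CPM in ctr and at 990, 915 and 799 CPM in cko (log2 -0.40, adjusted p = 0.141). Of 21 proliferation genes 18 were negative (median -0.30), none was called, and the median ranged from -0.62 to 0.20 over the alternatives. Mki67, a marker of dividing cells, was at 92.9, 28.2 and 48.3 CPM in ctr and at 54.5, 9.19 and 43.6 CPM in cko (log2 -0.54, adjusted p = 0.779). The nuclear RNAs Malat1 (log2 0.44, adjusted p = 0.0446) and Neat1 (log2 0.83, adjusted p = 0.00558) and Gm42418, which overlaps ribosomal RNA repeats (8361 to 8737 CPM in ctr, 14059 to 20958 CPM in cko, log2 0.96), were higher in cko. The cko members were also shallower, as given above, and the part of depth and of RNA quality in the lower genes was not tested. Malat1 lost its call without any library (up to 0.165) and Gm42418 without ctr replicate 3 (0.072).

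Few interferon response genes passed the test. Of 24 type I response genes none passed and 20 were positive (median 0.28), against 51.5% of all genes tested. Of 25 interferon gamma response genes only Gbp5 passed (median 0.14). Isg15, a ubiquitin-like protein induced by interferon, was at 85.7, 208 and 130 CPM in ctr and at 202, 215 and 152 CPM in cko (log2 0.42, adjusted p = 0.666). CTCF and cohesin genes, 10 in number, gave no call and a median of 0.20.

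**Figure D3:**
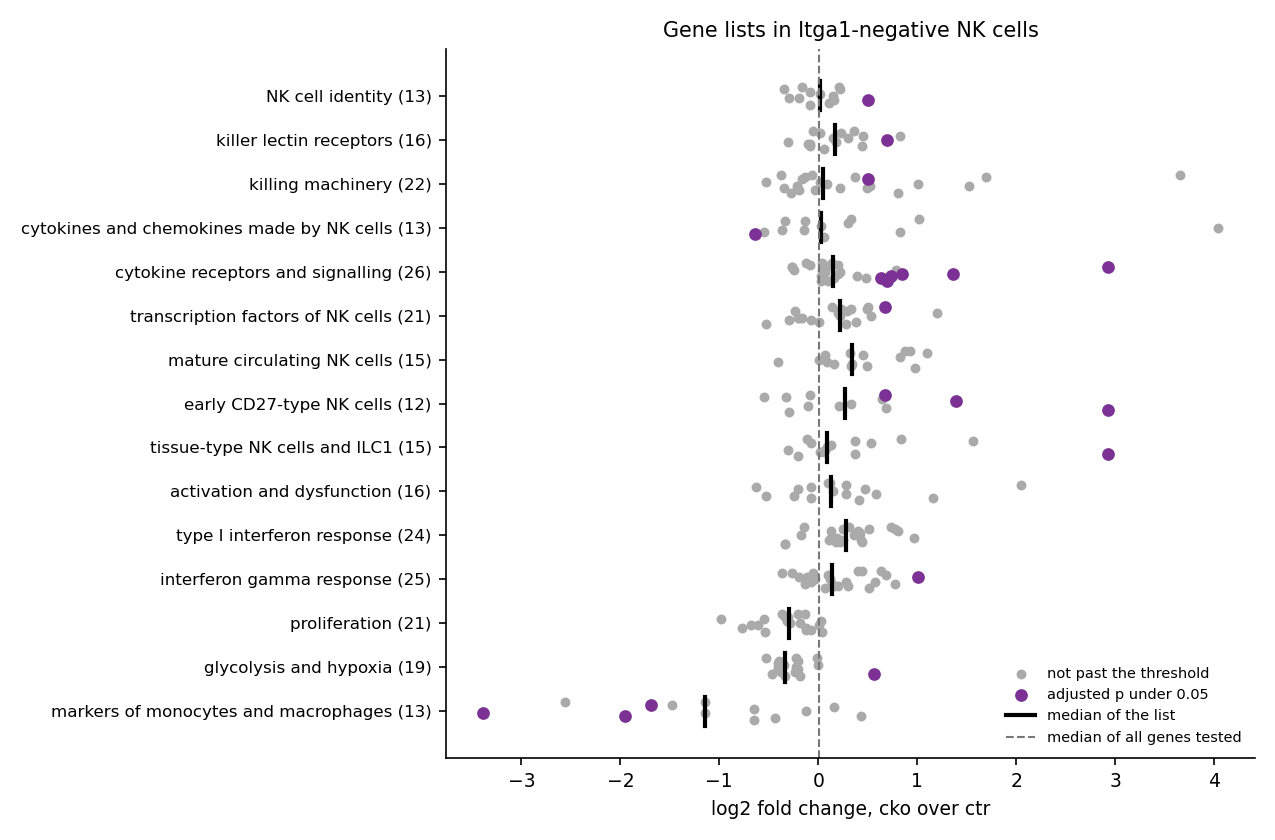
Log2 fold change of cko over ctr for the tested genes of 15 lists, with the number tested in brackets. Purple points are past an adjusted p of 0.05, grey points are not, black bars are list medians and the dashed line is the median of all genes (0.01). Calls above 0 gather in the cytokine receptor list (6 of 26), and the macrophage list has the lowest median of the 15 lists drawn (-1.14).

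The share of members with a UMI of a gene was also counted. At 2000 UMIs a cell that expresses a gene can show no UMI of it. These shares thus do not show whether members differed among themselves. Thinned to 2000 UMIs, 36.1% ± 2.8 of ctr and 31.7% ± 6.69 of cko members had an Eomes UMI (unthinned 68.3% and 53.4%), against 0.217% of ctr macrophages. Gzmb was seen in 74% ± 4.25 of ctr and 58.9% ± 7.43 of cko members, with samples of 71.1% to 78.9% and 53.2% to 67.3% that did not overlap, against 1.22% of macrophages in either group. Unthinned, its shares were 81% and 61%. The summed level of Gzmb did not pass the test, and no order is read from the share alone. Ifng was seen in 16.5% ± 2.34 and 17.5% ± 1.89 (unthinned 34.6% and 30.9%). Kit was seen in 4.19% ± 1.15 and 11.4% ± 4.22, against 0.752% and 2.7% of macrophages (unthinned 16.7% and 27.2% of members).

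Set against Itga1-positive NK cells of the same 6 samples, with the sample as a block, the members differed in many genes. Of 8603 genes tested 245 (2.85%) were higher and 302 (3.51%) lower in the members (edgeR, adjusted p below 0.05), or 6.36% in all, and 1029 of all genes (12%) kept their direction in 6 of 6 samples. Depth differed as well: the Itga1-positive cells had medians of 13171 to 14817 UMIs in ctr and 10285 to 12872 in cko. In thinned cells 40 genes were higher and 165 lower, from 1908 tested and with 188 Itga1-positive cells left in all samples. The rule was applied anew there, so cells that lost their Itga1 UMIs counted as members. Cells without a contig that lost their Cd3e and Cd3g UMIs could count as well. The thinned comparisons below thus mix the kinds of cells, and the part of depth in them was not tested. Leaving out cells with any TCR constant or Cd3d UMI or with 2 or more macrophage markers left 21 calls. That step removed most members, since 59.8% to 73.5% of them per sample had such a UMI, and NK cells can transcribe TCR constant regions themselves.

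Of 11 tested genes of circulating NK cells, 6 were higher in members and 1 lower (median log2 0.56). In thinned cells the median was 0.07 over 8 genes. Zeb2 was higher in 6 of 6 samples, at 91.6 CPM ± 20.7 in members and 38.9 CPM ± 6 in Itga1-positive cells (SD, n = 6 samples; log2 1.18, SE 0.09, adjusted p = 4.91e-09). Itga2 (log2 1.13, adjusted p = 0.000646), Itgam (log2 1.43, 0.00101), Itga4 (log2 0.66, 3.63e-06) and Itgb2 (log2 0.56, 5.83e-06) were each higher in 6 of 6 samples. Itga2 is the chain of CD49b, the surface mark of conventional NK cells. Cd27 (log2 0.66, adjusted p = 8.45e-05) and the chemokine receptor gene Cxcr4 (log2 1.12, 6.66e-05) were higher in 6 of 6 samples too. Klrg1, a receptor of late NK cells, went the other way, at 58.5 CPM ± 30.3 and 107 CPM ± 53.4 (log2 -0.90, adjusted p = 1.06e-05). In thinned cells Zeb2 (log2 -0.22, adjusted p = 0.666), Itga4 (0.05, 0.91) and Itgb2 (0.30, 0.393) were not called, while Klrg1 was (-0.97, 0.0155).

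Il18r1 was at 99.1 CPM ± 27.3 in members and 57 CPM ± 22.9 in Itga1-positive cells (log2 0.84, SE 0.10, adjusted p = 1.80e-06), and Il18rap (log2 0.69, adjusted p = 4.08e-05) and Il12rb2 (log2 0.47, adjusted p = 0.00105) were also higher in 6 of 6 samples. In thinned cells these were 0.02, -0.27 and -0.31 and not called. Ccl5 was at 1530, 2279 and 1900 CPM in ctr and 2557, 3601 and 3981 CPM in cko members, and at 367, 509 and 485 CPM and 712, 1500 and 1420 CPM in the Itga1-positive cells (log2 1.80, SE 0.14, adjusted p = 0.00161). Each sample's members held more than its Itga1-positive cells. In thinned cells the Ccl5 difference was 1.11 and not called (adjusted p = 0.11). Ccl3, a chemokine for myeloid cells, was 165 CPM ± 67.1 against 34.9 CPM ± 22.6 (log2 2.32, SE 0.28, adjusted p = 0.00932), and its call was lost without ctr replicate 1 (0.0523). Slpi, an inhibitor of neutrophil proteases, had a log2 difference of 2.03. The other 6 of the 10 highest genes, Lgmn, C1qa, Tgfbi, Fn1, Ms4a6d and Fcgr1, are expressed by macrophages. The macrophage list stood at a median of 1.25, or -0.13 without cells that had 2 or more macrophage markers. The removal used markers of that list, so it partly set this shift. Those 6 and Slpi were too low to be tested without the cells that had 2 or more macrophage markers. Among these genes C1qa, Fcgr1, Lgmn and Tgfbi lost their call without 1 or more libraries (adjusted p up to 0.144).

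Some killing genes were lower in the members: 6 of 22 tested, with 1 higher. Gzmd and Gzme, granzymes of strongly activated killer cells, were at 232 CPM ± 173 against 995 CPM ± 722 (log2 -2.12, SE 0.24, adjusted p = 0.00831) and at 107 CPM ± 91.9 against 454 CPM ± 338 (log2 -2.18, SE 0.28, adjusted p = 0.0127). In thinned cells the log2 values were -0.66 (0.0155) and -0.71 (0.0844). These granzyme genes are close copies, so their counts may be exchanged. The metallothionein gene Mt2 (log2 -2.26), the E-cadherin gene Cdh1 (log2 -1.79) and Igflr1, a receptor of the TNF receptor family (25.8 CPM ± 9.94 against 72.8 CPM ± 28.9, log2 -1.58, adjusted p = 4.91e-09), were lower in 6 of 6 samples. So were Myo10, Gpr141, Sema6d, Capn5 and Gpr34, with log2 values from -1.44 to -0.94. Thy1 (log2 -0.62), Rgs1 (-0.41), Tnfrsf9 (-0.38), Ctla4 (-0.54), Lag3 (-0.43) and Klrd1 (-0.30) were lower in 6 of 6 samples and past the threshold. None of these passed in thinned cells, where Tnfrsf9 was at -0.02 (0.948) and Lag3 was too low to be tested. Of 14 tested tissue-type and ILC1 genes 4 were lower and 1 higher. Prf1 was lower (log2 -0.26, adjusted p = 0.00693), a call lost without ctr replicate 1 (0.0886), while Gzma (log2 0.21, 0.542), Gzmb (log2 -0.04, 0.951), Eomes (log2 0.14, 0.269) and Tbx21 (log2 0.16, 0.19) did not pass the test. Gzme lost its call when ctr replicate 1, cko replicate 1 or ctr replicate 3 was left out (up to 0.0607).

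**Figure D4:**
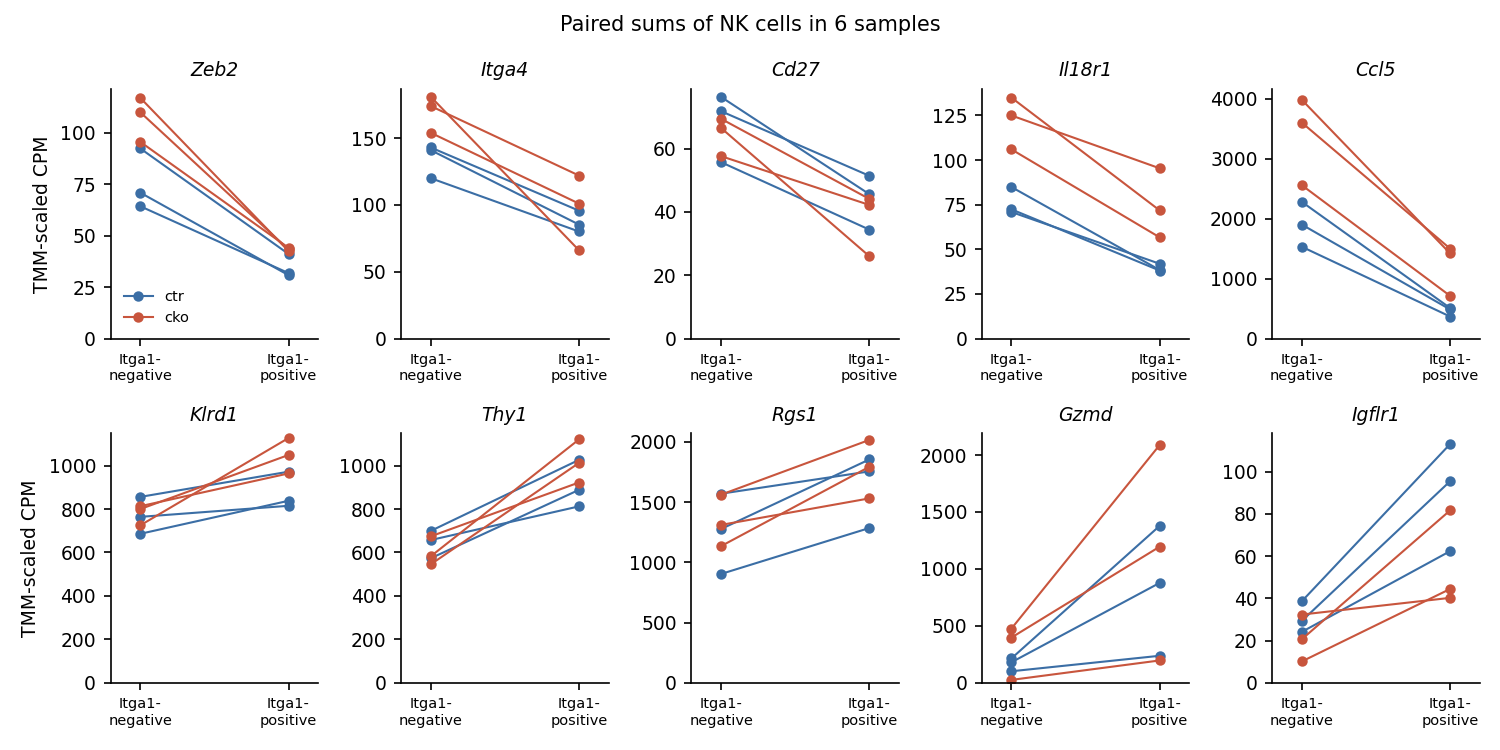
TMM-scaled CPM of 10 genes in Itga1-negative and Itga1-positive NK cells, with a line joining the sums of each sample (ctr blue, cko red). Zeb2, Itga4, Cd27, Il18r1 and Ccl5 lie higher in the Itga1-negative sums of all 6 samples, and Klrd1, Thy1, Rgs1, Gzmd and Igflr1 lie lower.

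The genotype difference itself was then compared between the kinds of NK cells. No gene of 9226 passed the interaction test (edgeR; smallest adjusted p = 0.0765, 546 genes at an unadjusted p below 0.05), and DESeq2 gave 0 as well (83 unadjusted). This does not show that the kinds responded alike. Without ctr replicate 3 the test called 7 genes, without cko replicate 1 it called 6 and without cko replicate 2 it called 1. Slc2a3, a glucose transporter, came closest, with a log2 difference of effects of -1.71 (SE 0.33, adjusted p = 0.0765). In Itga1-positive cells Kit (log2 2.10, SE 0.19), Camk4 (2.02, SE 0.22), Il7r (2.46, SE 0.41), Klrc1 (1.00, SE 0.13), Tcf7 (1.16, SE 0.23), Stat4 (0.58, SE 0.13), Il18r1 (0.97, SE 0.18) and Il12rb2 (0.93, SE 0.18) were past the threshold and higher in cko too. Ifnar1 had 0.23 there against 0.85 in the members (interaction 0.59, adjusted p = 0.655), and Sgk1 -0.48 against 1.23 (interaction 1.68, adjusted p = 0.206). Both kinds come from the same mice, so the values are not independent. Eomes was called lower in Itga1-positive cells (log2 -0.61, SE 0.13, adjusted p = 0.0444) and not in members, a difference that did not pass the interaction test (0.32, adjusted p = 0.81).

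**Figure D5:**
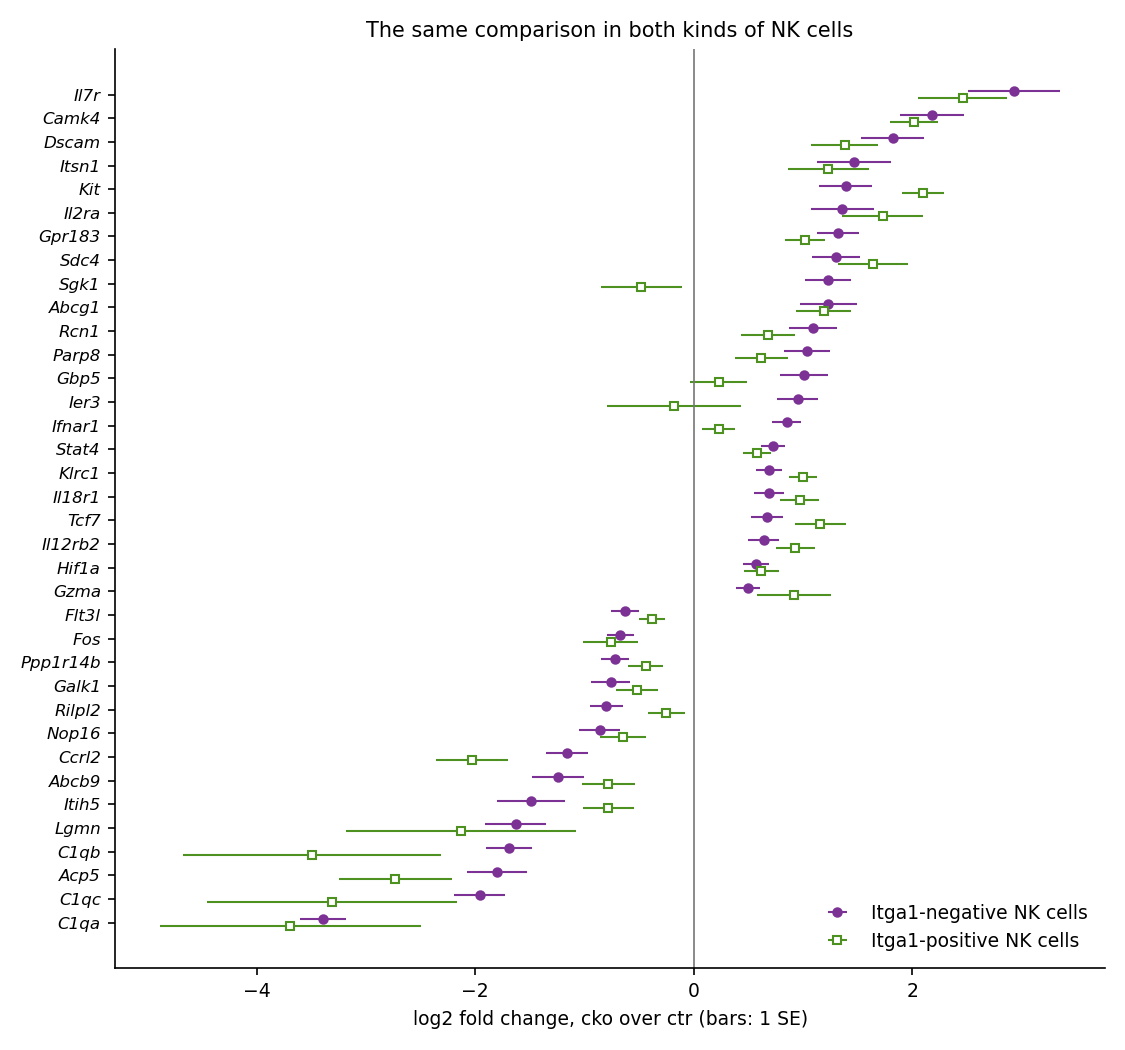
Log2 fold change of cko over ctr, with bars of 1 SE, for the called named genes in Itga1-negative (filled circles) and Itga1-positive (open squares) NK cells. The kinds overlap within their bars for genes such as Camk4 (2.18 and 2.02), while Sgk1 (1.23 and -0.48) lies apart without passing the interaction test.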

How the data were processed

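Sums were made from 3 ctr and 3 cko libraries of CD45-sorted MC38 tumour leukocytes. The authors deposited raw UMI counts per gene and barcode, and tables of assembled TCR contigs, made with Cell Ranger 7.0.0 on mm10 (GRCm38), per the submitters' processing notes. The sources used here do not say whether joined cells or ambient RNA were removed before, and no such step was run. Of 32285 gene identifiers 32235 were found in the GENCODE M21 annotation of GRCm38. Members and lists were chosen with earlier results of these data known.

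Counts were summed per sample over members and over Itga1-positive NK cells, filtered with filterByExpr, scaled by TMM and tested with edgeR 4.0.16 (robust quasi-likelihood fit, R 4.3.3) with Benjamini-Hochberg adjustment and a threshold of 0.05. The 8 genes of the rule were left out of the tests. CPM of markers, chosen-cell genes and summed lists are unscaled. Shares were compared with exact permutation tests in scipy 1.17.1. Thinning drew 2000 UMIs per cell without replacement (seed 1) and left out shallower cells. For the gene tests and the share of members, the rule was applied anew to the thinned counts, its Cd3e and Cd3g terms included. The fits were tested on simulated data. Replicate sums of a group differed by more than counting noise (chi-square per degree of freedom 2.57 to 5.35).

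Named genes were the 12 higher and 12 lower with the largest change past the threshold, groups not overlapping and at least 20 CPM in the higher group, list members past the threshold, key NK genes, and 10 in each direction for Itga1-negative against Itga1-positive cells in 6 of 6 samples. The ranking left out genes known only by a Gm or Rik number and ribosomal, mitochondrial, immunoglobulin and TCR segment genes. Alternatives were thinning, at least 3 markers, at least 1000 UMIs, leaving out cells with other types' transcripts, adding cko replicates 1 and 3, RLE scaling, DESeq2 1.42.0, no low-count filter, a replicate block, and each library left out. P-values measure only the spread between these samples. Results for a few genes are not reported here.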

Additional observations from a re-analysis of the deposited data

How the results depend on the processing

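The share of members and the share of NK cells without Itga1 kept their direction under every alternative run; leaving out libraries gave -1.66 to -1.11 and 15.6 to 19.8 points. The 100 genes called between cko and ctr became 41 with at least 3 markers, 13 with cko replicates 1 and 3 added together (12 of them shared), 426 without the low-count filter, and 20 to 92 without 1 library. DESeq2 called 124 (21 higher, 103 lower) but gave an adjusted p to 605 genes only, so most lost calls cannot be judged. Of the 36 named calls, 35 kept their direction in every alternative that tested them, and 30 lost their call without at least 1 library, from 8 without ctr replicate 1 to 25 without cko replicate 3; 8 of the 36 stood with the added libraries and 11 of the 27 tested in thinned cells. The shared replicate numbers were not taken as pairs, since deviations of same-numbered samples correlated at 0.0964, -0.0581 and 0.0446. With the replicate block 238 genes were called, and the exact paired p of the share was 0.25. The 547 genes called between Itga1-negative and Itga1-positive cells became 205 in thinned cells, 307 with at least 3 markers, 21 without cells holding T cell or macrophage transcripts, 264 with DESeq2, 190 without the sample block, and 371 to 512 without 1 library. For the interaction, 2 genes were called with at least 3 markers, 1 without cells of 2 or more macrophage markers (added after seeing the data), 1 with the added libraries, 19 without the filter, and 0 to 7 without 1 library. Among named genes that turned sign between cko and ctr, the cause of which was not tested, thinning gave Cd27 0.50 and Il2rb 0.07, at least 3 markers gave Gzmb 0.24 and Prf1 0.01, dropping cells with T cell or macrophage transcripts (most members) gave Ctcf 0.36, Ifng -0.27, Il2rb 0.01 and Klrd1 -0.26, dropping macrophage-bearing cells gave Ccrl2 0.23, Lyz2 0.32, Gzmb 0.01 and Klrd1 -0.04, and no filter gave Klrd1 -0.01. Without 1 library the range was -0.20 to 0.09 for Gzmb, -0.21 to 0.01 for Cd27, -0.02 to 0.07 for Ifng, -0.16 to 0.49 for Itga2, -0.08 to 0.51 for Itgam and -0.06 to 0.10 for Klrd1. Between the kinds of NK cells, thinning gave Zeb2 -0.22, Il18rap -0.27, Il12rb2 -0.31, Eomes -0.11 and Gzmb 0.09, at least 3 markers gave Gzmb 0.16, dropping T cell and macrophage transcripts gave Gzmb 1.08 and Prf1 0.13, and leaving out a library gave Gzmb -0.16 to 0.05.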

Other observations

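Cells with 2 or more of the NK markers but with an assembled TCR contig were left out of the members. They numbered 59, 25 and 62 in ctr replicates 1, 2 and 3, or 0.921%, 0.428% and 0.852% of kept cells. In cko replicates 1, 2 and 3 they numbered 30, 17 and 34, or 0.439%, 0.277% and 0.491%. The groups overlapped. Trdv4, a variable segment of the gamma delta TCR, stood at 103 to 172 CPM in the members, 9.18 to 102 CPM in all kept cells and 0.382 to 1.55 CPM in macrophages.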
